A study of Mus musculus with 6 samples.

Results

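Inositol phosphate kinases pass phosphate groups, one after another, onto the soluble messenger inositol trisphosphate and its products. The genes described here are 10 such kinases, taken by name from the gene table of an RNA sequencing study of P19 cells: Ipmk, Ip6k1, Ip6k2, Itpka, Itpkb, Itpkc, Ippk, Itpk1, Ppip5k1 and Ppip5k2. They are 10 of 34745 genes in the table, and 9 of them had enough counts to be among the 13836 genes tested. P19 is an established mouse embryonal carcinoma line, grown here in alpha-MEM with serum. The labels describe 3 libraries as control cells without treatment and 3 as cells treated with the peptide PDTLN1, and they state neither the dose nor the time of exposure. Whether separate cultures gave rise to the libraries is not stated, so the spread between them, which all p-values and intervals measure, is possibly technical.

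Phospholipase C releases inositol trisphosphate, which opens calcium channels on the endoplasmic reticulum. The kinases of the Itpk and Ipmk families turn that messenger into higher phosphates, Ippk adds the last phosphate of inositol hexakisphosphate (phytate), and the Ip6k and Ppip5k enzymes attach further phosphates to make the energy-rich inositol pyrophosphates. Ipmk, a multikinase, works at several steps of this route and can also phosphorylate the membrane lipid PIP2, and higher inositol phosphates serve as cofactors of nuclear complexes such as the class I histone deacetylases.

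Ipmk was the reason for looking at this family. Together with Dcbld2 and Ppp1cb it was among the 3 genes that passed edgeR's quasi-likelihood test at a Benjamini-Hochberg adjusted p under 0.05, which is 0.0217% of all genes tested. Ipmk was thus chosen by its measured difference between control and PDTLN1 libraries, which is given below as a description, without a test. The other 9 genes were taken as its enzyme family. Of the 9 members tested, 1 was called by edgeR, and 1, again Ipmk, by DESeq2, which called 0.0723% of all genes. Nothing is read from these counts.

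Ipmk (ENSMUSG00000060733) spans bases 71347763 to 71433327 of chromosome 10 and is read from the plus strand (GRCm38). Its neighbour Cisd1, which encodes an iron-sulphur protein of the outer mitochondrial membrane, is read in the opposite direction from a start site 2809 bases away. The promoter windows of both genes are shown because this pair of start sites lies back to back, and the transcript levels of both genes are described further on. Each window runs 5′ to 3′ on the gene's own strand from 250 bases before to 50 bases after the RefSeq start (GRCm38.p6), with GC boxes (GGGCGG) and the core motif of the transcription factor NRF1 (GCGCATGC) in capitals on either strand.
Ipmk promoter, chr10:71347513-71347812, plus strand: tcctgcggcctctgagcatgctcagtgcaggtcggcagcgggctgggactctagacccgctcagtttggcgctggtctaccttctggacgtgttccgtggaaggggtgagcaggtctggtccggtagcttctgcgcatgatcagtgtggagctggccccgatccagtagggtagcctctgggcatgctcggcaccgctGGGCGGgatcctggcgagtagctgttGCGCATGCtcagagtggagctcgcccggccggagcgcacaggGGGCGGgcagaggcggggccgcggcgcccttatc
Cisd1 promoter, chr10:71344800-71345099, minus strand: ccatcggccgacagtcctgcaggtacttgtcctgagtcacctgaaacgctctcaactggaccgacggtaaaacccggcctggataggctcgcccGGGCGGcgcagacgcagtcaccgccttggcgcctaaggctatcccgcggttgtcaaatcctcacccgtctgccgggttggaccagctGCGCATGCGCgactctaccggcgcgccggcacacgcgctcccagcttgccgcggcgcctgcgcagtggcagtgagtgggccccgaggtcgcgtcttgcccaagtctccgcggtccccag
The Ipmk window held 2 GC boxes and 1 match to the NRF1 core, and 24 CpG dinucleotides, where the median of all promoter windows was 7. In the Cisd1 window there were 1 GC box, 35 CpG dinucleotides and NRF1 core letters that read on both strands, where the matches overlap. Of all 32851 promoter windows of this length, 35.7% held a GC box, 19.5% held 2 or more and 2.71% held the NRF1 core. Neither window contained the TATA box letters TATAAA (13.6% of windows), the letters CCAAT (37.4%) or the cyclic AMP response element TGACGTCA (1.79%), on either strand. All 10 kinases had a window, and the NRF1 core was also present in that of Ip6k1. These matches describe letters in the windows and were not tested as binding sites.

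Total gene counts ran from 10381307 to 11663081 per library. Markers of pluripotent cells were expressed throughout, with Pou5f1 and Lin28a the highest at means of 1461 and 916 CPM (counts scaled to a common library total) in controls and 1353 and 911 after PDTLN1. The extraction text of the labels speaks of retinas, although the samples are labelled as cells of a line. Of 9 retina markers, Crx and Arr3 were at 0 in each library, 0 had enough counts to test, and the whole list summed to 1.52 to 1.96 CPM in controls and 0.867 to 1.82 after PDTLN1. Blood cell markers, of which Cd3e was at 0, summed to 16.6 to 18.9 CPM in controls and 17.0 to 18.9 CPM after PDTLN1, and fibroblast and muscle markers to 160 to 173 and 152 to 201 CPM, with 0 of 8 at 0. On the first principal component of the 1000 most variable genes, PDTLN1 libraries 2 and 3 scored -15.5 and -9.03 and control library 1 scored -12.5, whereas the other libraries lay between 11.7 and 12.8, so the widest split among libraries did not follow treatment.

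Ipmk transcripts were at 2.10, 2.54 and 2.21 FPKM (counts scaled to gene length and library total, as deposited by the authors) in control libraries 1, 2 and 3, and at 6.60, 5.65 and 6.52 FPKM in PDTLN1 libraries 1, 2 and 3. The lowest treated library was more than 2 times the highest control library, so the groups lay far apart. These levels rest on 229, 283 and 258 counts in controls and 715, 679 and 794 after PDTLN1. The means were 2.28 ± 0.227 and 6.26 ± 0.527 FPKM (SD, n = 3 each), a 2.73-fold difference. The log2 fold change was 1.45, with an SE of 0.11 and a 95% interval of 1.21 to 1.69. Ipmk was chosen by this difference, and the interval, given as a description, makes no allowance for that choice. Of the 13836 genes tested, 18 had a log2 fold change of larger size. The spread within the groups was 9.93% of the mean in controls and 8.43% after PDTLN1, where counting alone would give 6.24% and 3.70%. Control library 1 and PDTLN1 libraries 2 and 3, which lay together on the first component, stood at 2.10, 5.65 and 6.52 FPKM. The remaining libraries stood at 2.54, 2.21 and 6.60 FPKM. Across both groups Ipmk was thus not divided by that split. Within each group, the libraries on that side of the split were the lower ones. Without both libraries numbered 1, a choice made after seeing the data, the log2 fold change was 1.35. The part of that split in the estimate was not tested. The annotation lists 7 transcripts of the gene, of which 3 are protein-coding and 2 are marked for nonsense-mediated decay, and gene counts do not show which of them differed. No other annotated gene overlaps it.

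**Figure D1:**
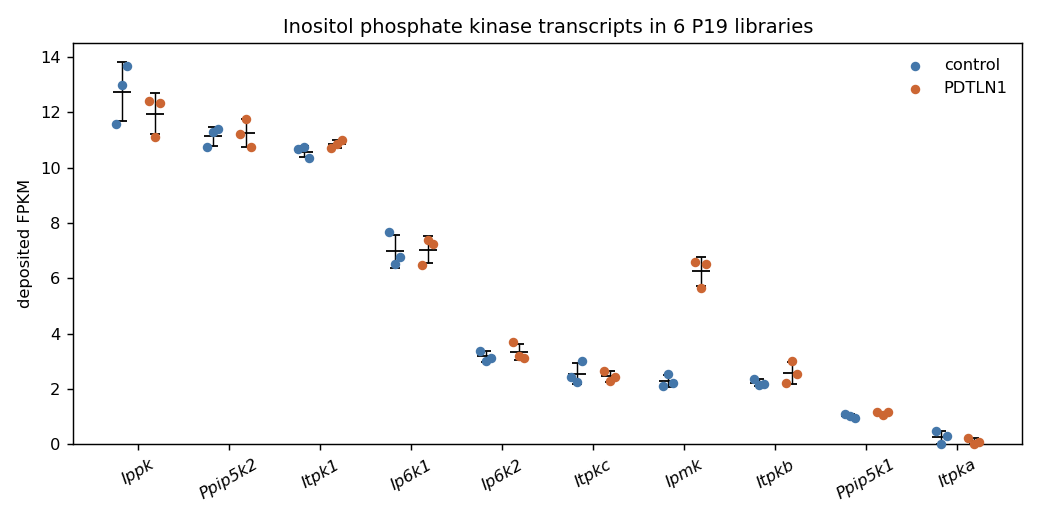
Deposited FPKM of the 10 kinase genes (vertical axis) in 3 control and 3 PDTLN1 libraries; points are libraries, bars the mean and SD, and genes run from the highest to the lowest control mean. Ipmk sits between 2.10 and 2.54 FPKM in controls and between 5.65 and 6.60 after PDTLN1, while the groups of every other gene overlap.

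The kinases that act on the same messenger as Ipmk were near its control level or below it. Itpkb, an inositol trisphosphate 3-kinase important in lymphocytes, was at 2.36, 2.15 and 2.16 FPKM in controls and 2.22, 3.01 and 2.55 FPKM after PDTLN1. Its groups overlapped, with PDTLN1 library 1 inside the control range, and the means differed 1.16-fold. Itpkb was highest in control library 1 and PDTLN1 libraries 2 and 3, the libraries that lay together on the first principal component. The part of that split in its estimate was not tested. Without PDTLN1 library 2 its log2 fold change was 0.096 instead of 0.22. Itpkc, a 3-kinase expressed in many tissues, was at 2.44, 2.24 and 2.99 FPKM in controls and 2.66, 2.27 and 2.43 FPKM after PDTLN1, with every treated library inside the control range. Its exons share 24.1% of their length with BC024978, an opposite-strand gene, and as the treatment of strand is not given in the sources used here, reads of the pair cannot be told apart. Itpka, the neuronal 3-kinase that also binds actin filaments, had 9, 0 and 6 counts in controls and 4, 0 and 2 after PDTLN1, too few to test. Both groups included a library at 0 counts, where 3 counts, the limit that a count of 0 allows, equal 0.281 CPM in control library 2 and 0.261 in PDTLN1 library 2, for counting error only.

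Itpk1, which phosphorylates inositol trisphosphates at the 5 and 6 positions, was the steadiest member by the ratio of its highest to its lowest library. It was at 10.7, 10.7 and 10.3 FPKM in controls and 10.7, 10.8 and 10.99 FPKM after PDTLN1, with a ratio of 1.06 between the highest and the lowest of the 6 libraries. Itpk1 spread by 1.99% of the mean in controls and 1.29% after PDTLN1, below the 4.90% and 4.75% that counting alone would give. On the CPM scale with TMM factors, its groups did not overlap, at a 1.02-fold difference. Groups did not overlap for 9.79% of all genes tested, 4.81% with PDTLN1 higher, as here and for Ipmk, and 4.98% with PDTLN1 lower. In FPKM, which lacks that scaling, they did overlap. Ippk, the enzyme that completes inositol hexakisphosphate, was at 11.6, 13.0 and 13.7 FPKM in controls and 12.4, 11.1 and 12.3 FPKM after PDTLN1, a 0.936-fold difference with overlapping groups. Ippk was lowest in control library 1 and PDTLN1 libraries 2 and 3, which lay together on the first principal component. The part of that split in its estimate was not tested. Part of its exons, 6.52% of their length, overlap the opposite-strand centromere gene Cenpp.

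Among the kinases that make inositol pyrophosphates, Ip6k1 was at 7.66, 6.52 and 6.76 FPKM in controls and 6.47, 7.39 and 7.23 FPKM after PDTLN1. Its libraries overlapped across the groups and their means, 6.98 ± 0.598 and 7.03 ± 0.488 FPKM (SD, n = 3 each), differed by less than the spread. Ip6k1 was highest in control library 1 and PDTLN1 libraries 2 and 3, which lay together on the first principal component. The part of that split in its estimate was not tested. Its exons share 14.5% of their length with the same-strand gene Gm20662. Ip6k2, its close relative on the same chromosome 9 at a gap of 0.735 Mb, was at 3.39, 3.02 and 3.12 FPKM and at 3.68, 3.20 and 3.14 FPKM. Again the groups overlapped. Ip6k3, the muscle-associated relative that is not among the 10 genes, had 0 counts in all 6 libraries, which allows up to 0.257 to 0.289 CPM (3 counts per library). Ppip5k2, which adds the pyrophosphate at the other ring position, was the member with the most counts, 1734 to 2091 per library, and stood at 10.7 to 11.4 FPKM in controls and 10.7 to 11.8 FPKM after PDTLN1. Its relative Ppip5k1 was at 0.934 to 1.09 and 1.06 to 1.16 FPKM, ranges that overlap. It shares chromosome 2 with Itpka, at a gap of 1.56 Mb.

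None of the 8 other tested kinases passed edgeR's adjustment over all genes, beside 0.0217% of all genes tested. An unadjusted p under 0.05 was found for 0 of the 8, beside 3.99% of all genes, and 0 passed in DESeq2, beside 0.0723%. Their fold changes ran from 0.936 to 1.16, and all 8 of their 95% intervals held 1, within bounds of 0.769-fold (Itpkc) and 1.42-fold (Itpkb). A change as large as that of Ipmk was thus outside the interval of each of them, whereas smaller changes within each gene's interval were not excluded. Two-sided intervals on the log2 scale were narrowest for Ppip5k2, from -0.12 to 0.14, and widest for Itpkc, from -0.38 to 0.25.

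**Figure D2:**
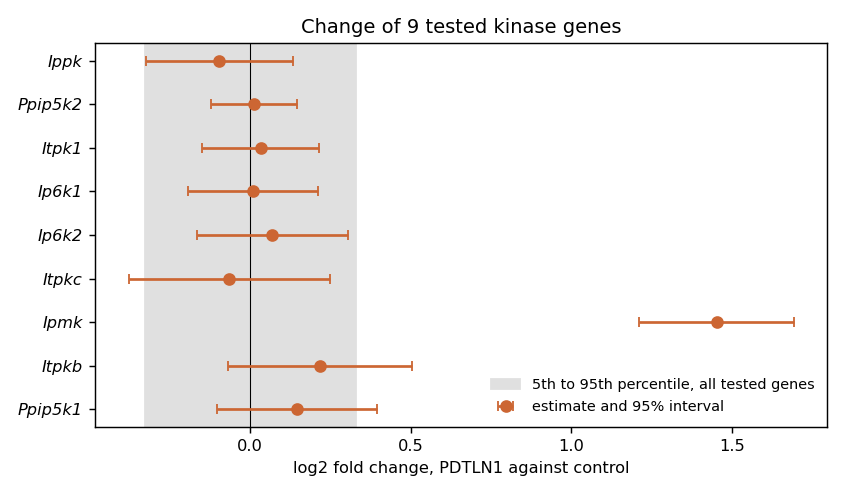
Log2 fold change of PDTLN1 against control (horizontal axis) with its 95% interval for the 9 tested kinase genes, ordered by control level; the grey band spans the 5th to the 95th percentile of all tested genes, -0.33 to 0.33. Ipmk lies at 1.45, outside the band, and the other 8 estimates lie inside it between -0.10 and 0.22.

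The order of the kinases by level showed where Ipmk moved. In controls the deposited FPKM placed Ippk highest at 12.7 ± 1.06, followed by Ppip5k2 (11.1 ± 0.344), Itpk1 (10.6 ± 0.210), Ip6k1 (6.98 ± 0.598) and Ip6k2 (3.18 ± 0.190; SD, n = 3 each). Itpkc, Ipmk and Itpkb came next at 2.56 ± 0.390, 2.28 ± 0.227 and 2.22 ± 0.117 FPKM; the ranges of Itpkc and Ipmk overlapped, as did those of Ipmk and Itpkb. Ppip5k1 (1.01 ± 0.0795) and Itpka (0.256 ± 0.239) were lowest, and each of the remaining neighbours in the order had ranges that did not overlap. After PDTLN1, Ipmk stood in place 5 instead of 7, with a range that overlapped that of Ip6k1 above it and lay clear of Ip6k2 below it. The first 3 places, Ippk, Ppip5k2 and Itpk1, then overlapped from each to the next, and so did Itpkb and Itpkc.

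Levels per length depend on the length used. The deposited FPKM imply a length of 10438 bases for Ipmk, 10281 for Ip6k2 and 2776 for Ippk, where the merged exons of GENCODE M21 span 7093, 4067 and 4831 bases. With the merged exons as length, a choice made after seeing the data, Ippk fell to place 5 in controls at 7.32 ± 0.609 and Ip6k2 stood at 8.03 ± 0.479 counts on the same scale as FPKM (SD, n = 3 each). Ipmk was then in place 7 in controls and place 4 after PDTLN1, at 3.36 ± 0.333 and 9.21 ± 0.776. Comparisons of 1 gene between libraries do not depend on this choice.

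Summed over the 10 kinases, transcript levels were 52.5, 52.5 and 53.9 FPKM in controls and 57.4, 56.3 and 57.2 FPKM after PDTLN1. Without Ipmk the sums were 50.4, 49.9 and 51.7 FPKM and 50.8, 50.6 and 50.7 FPKM, so the treated libraries lay within the control range. Ipmk made up 4.31 ± 0.454% of the 10-gene sum in controls and 10.98 ± 0.820% after PDTLN1 (SD, n = 3 each). With merged exons as length these shares were 5.54% and 13.7%.

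**Figure D3:**
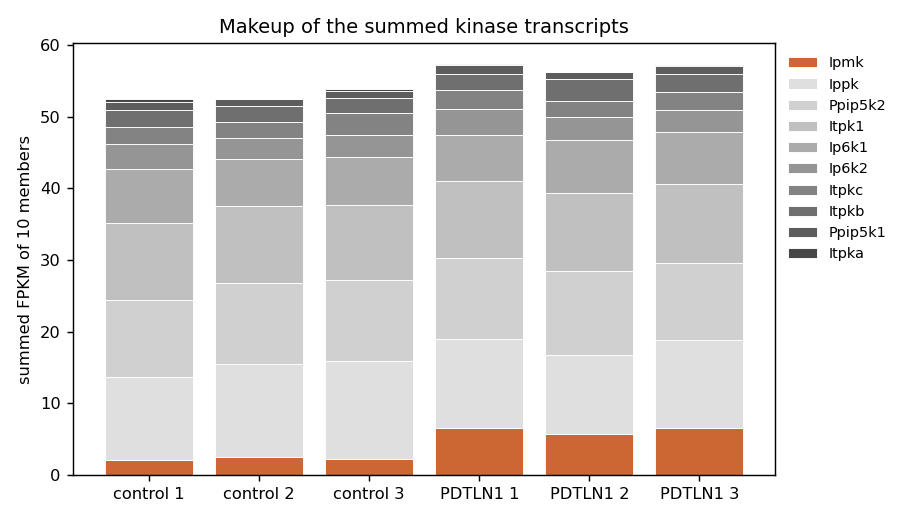
Summed deposited FPKM of the 10 kinase genes in each library (vertical axis), stacked by gene with Ipmk in colour at the base. The Ipmk segment makes up 3.999 to 4.83% of the bar in control libraries and 10.0 to 11.5% in PDTLN1 libraries, and the grey remainder lies between 49.9 and 51.7 FPKM in all 6.

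Genes around Ipmk were examined next, since position was not used to choose it. The table holds 10 other genes whose start lies within 1 Mb of that of Ipmk, and 7 had enough counts to test. None of the 7 passed edgeR's test, beside 0.0217% of all genes, 0 had an unadjusted p under 0.05, beside 3.99%, and 0 passed in DESeq2, beside 0.0723%. In 0 of the 7 were the groups free of overlap, beside 9.79% of all genes. Cisd1, the back-to-back neighbour, was at 22.2, 19.5 and 20.6 FPKM in controls and 20.6, 21.6 and 20.7 FPKM after PDTLN1. Every treated library lay inside the control range, and the log2 fold change was 0.01 with a 95% interval of -0.22 to 0.24. Ube2d1, a ubiquitin-conjugating enzyme gene, and Tfam, which encodes the packaging and transcription factor of mitochondrial DNA, had log2 fold changes of 0.00 and 0.02, with intervals of -0.21 to 0.21 and -0.17 to 0.22. Cisd1 and Ube2d1 were highest in control library 1 and PDTLN1 libraries 2 and 3, which lay together on the first principal component. The part of that split in their estimates was not tested. On the other side of Ipmk the nearest tested gene was the pseudogene Gm9923, 961462 bases away, at 0.03. The RNA-binding protein gene Bicc1 and the weakly expressed Phyhipl had estimates of 0.15 and -0.15 with intervals wider than those of the nearer genes.

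**Figure D4:**
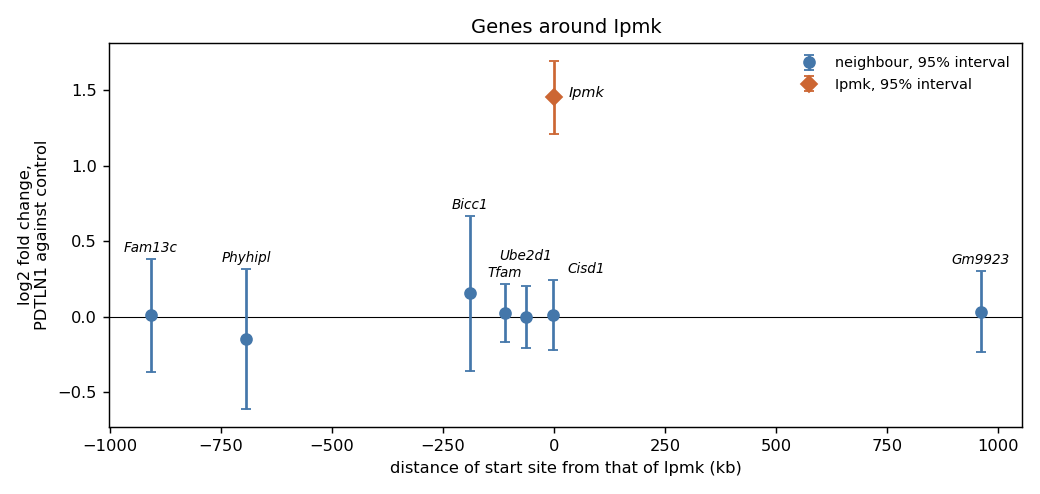
Log2 fold change of PDTLN1 against control with its 95% interval (vertical axis) for Ipmk and the 7 tested genes within 1 Mb, by distance between start sites in kb (horizontal axis). Ipmk stands at 1.45, and the 7 neighbours lie between -0.15 and 0.15 with intervals that hold 0.

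The wider pathway was covered by lists of 97 genes that supply, remove or bind inositol phosphates and phosphoinositides, of which 88 were tested. None passed edgeR's adjustment over all genes (0.0217% of all genes did), 4 had an unadjusted p under 0.05 against 3.99% of all genes, and 0 passed in DESeq2. Of the 88, 44 estimates lay above 0 and 44 below, and their median log2 fold change was 0.00, beside 0.00 over all genes tested. The groups did not overlap for 4 higher and 5 lower genes, 10.2% of the 88 beside 9.79% of all genes.

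**Figure D5:**
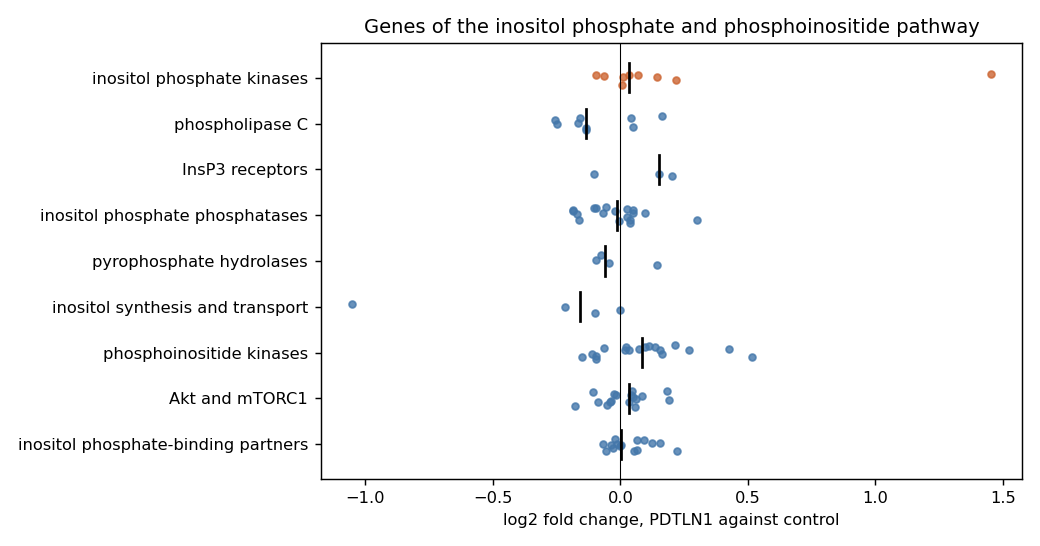
Log2 fold change of PDTLN1 against control (horizontal axis) for each tested gene of the kinase family and of 8 lists of the pathway; black bars are list medians and vertical scatter only separates points. Ipmk is the point at 1.45, and the pathway genes lie between -1.05 and 0.52.

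Upstream of the kinases, 9 of 13 phospholipase C genes were tested, with 0 called, 3 estimates above 0, 6 below and a median of -0.13. Plce1, the isoform that Ras proteins regulate, had a log2 fold change of 0.17, and Plcd1 and Plch1 ones of -0.25 and -0.17. The groups of Plcd1 did not overlap, with PDTLN1 lower. All 3 receptors of inositol trisphosphate, the calcium channels that the messenger opens, were tested and 0 were called. Itpr1 was at 6.24, 5.80 and 5.37 FPKM in controls and 6.44, 6.63 and 7.004 FPKM after PDTLN1. Those groups did not overlap, with a log2 fold change of 0.20 ± 0.07 (SE) that did not pass the adjustment. Itpr2 and Itpr3 had overlapping groups and log2 fold changes of 0.15 and -0.10.

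Enzymes that take phosphates off showed a median near 0. Of 18 tested inositol phosphate phosphatases out of 19 listed, 0 were called, 8 lay above 0 and 10 below, with a median of -0.01. Inpp4a, a 4-phosphatase of phosphoinositides, had a log2 fold change of 0.30; leaving out PDTLN1 library 1 gave 0.12 and leaving out PDTLN1 library 2 gave 0.50. Impa2, an inositol monophosphatase, and Inpp5f, a phosphoinositide phosphatase, had ones of -0.18 and -0.11. For Impa2 the groups did not overlap, with PDTLN1 lower. The hydrolases that cleave inositol pyrophosphates were all 4 tested with 0 called and a median of -0.06. Nudt4 was at 43.5 ± 0.523 and 48.1 ± 1.91 FPKM (SD, n = 3 each), with groups that did not overlap and a log2 fold change of 0.14, and Nudt3 and Nudt10 stood at -0.08 and -0.09.

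Inositol supply was measured by 4 tested genes of 6, with 0 called, 0 above 0 and a median of -0.16. Isyna1, which makes inositol phosphate from glucose 6-phosphate, was at 72.2, 82.9 and 88.4 FPKM in controls and 79.9, 62.3 and 67.8 FPKM after PDTLN1. Control library 1 and PDTLN1 libraries 2 and 3 were the lowest, the same libraries that lay together on the first principal component; the part of that split in the log2 fold change of -0.22 was not tested. The sodium-coupled inositol transporter Slc5a3 had a log2 fold change of -0.10. Slc5a3 was lowest in the same libraries, at 2.63, 2.88 and 2.47 FPKM, and the part of that split in its estimate was not tested. Its relative Slc5a11 had one of -1.05, the largest in size of the pathway genes, at 0.355 ± 0.123 and 0.169 ± 0.0381 FPKM (SD, n = 3 each) and with an SE of 0.40. The groups of Slc5a11 did not overlap, with PDTLN1 lower. This rests on only 14, 21 and 11 counts in controls and 6, 7 and 10 after PDTLN1. With the filter of at least 1 CPM in 3 libraries Slc5a11 was not tested.

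Lipid kinases and their regulatory subunits gave 18 tested genes of 19, with 0 called, 13 above 0, 5 below and a median of 0.09. Pik3r3 and Pik3r1, regulatory subunits of phosphoinositide 3-kinase, had log2 fold changes of 0.42 and 0.27, and Pi4k2b one of -0.11. Pik3r3 was at 3.20, 2.47 and 2.19 FPKM in controls and 2.81, 4.43 and 3.31 FPKM after PDTLN1, again with control library 1 and PDTLN1 libraries 2 and 3 on one side. Pik3r1 was divided alike, at 2.68, 2.83 and 3.04 FPKM in those libraries and 2.09, 1.97 and 2.26 FPKM in the others, and the part of that split in both estimates was not tested. Without PDTLN1 library 2 the log2 fold change of Pik3r3 was 0.22, and without control library 1 that of Pik3r1 was 0.42. Pi4k2b was lowest, at 20.9, 18.8 and 20.3 FPKM, in control library 1 and PDTLN1 libraries 2 and 3. The part of that split in its estimate was not tested. In the Akt and mTORC1 list, where the lipid signal leads, 0 of 17 tested genes were called, 9 lay above 0 and 8 below, and the median was 0.03. Rictor, the defining subunit of mTORC2, had a log2 fold change of 0.18, the mTORC1 restraint Tsc1 one of -0.11 and the translation repressor Eif4ebp1 one of -0.18. Of these, Tsc1 had groups that did not overlap, with PDTLN1 lower. Eif4ebp1 was lowest, at 99.7, 90.2 and 95.6 FPKM, in control library 1 and PDTLN1 libraries 2 and 3, and the part of that split in its estimate was not tested either.

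Proteins known to bind inositol phosphates, among them histone deacetylase complexes, were all 15 tested with 0 called, 8 above 0, 7 below and a median of 0.00. Ncor1, the corepressor that joins histone deacetylase 3, was at 12.4, 13.5 and 12.4 FPKM in controls and 13.5, 15.1 and 14.2 FPKM after PDTLN1. On the CPM scale its groups did not overlap, and the log2 fold change of 0.16 ± 0.06 (SE) did not pass. Xpr1, the phosphate exporter that senses inositol pyrophosphates, had a log2 fold change of 0.12, which was 0.037 without PDTLN1 library 2. Its level was highest, at 3.65, 4.15 and 3.69 FPKM, in control library 1 and PDTLN1 libraries 2 and 3. Those libraries lay together on the first principal component, and the part of that split in the estimate of Xpr1 was not tested. The RNA helicase gene Ddx19a had a log2 fold change of -0.07.

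Among the 13835 other tested genes, those whose log2 levels followed Ipmk most closely across the 6 libraries were Ppp1cb (Pearson r = 0.986), Lmo1 (0.986), Dcbld2 (0.984), Pdgfra (0.984) and Dpysl3 (0.977), with 1 gene of a predicted name left out. Thap11 (-0.991), Mri1 (-0.982) and Sugt1 (-0.980) ran most nearly opposite. All 8 have groups that do not overlap, as does Ipmk, so these values mostly restate the difference between the groups over 6 points that share the same libraries. They differ in size: the log2 fold change was 1.67 for Dcbld2 and 0.97 for Ppp1cb, 0.51 for Pdgfra, 0.32 for Dpysl3 and -0.07 for Sugt1. Lmo1, at 1.00, averaged 0.620 CPM in controls and 1.25 CPM after PDTLN1.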

How the data were processed

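The submitters deposited 1 table with raw read counts and FPKM for 34745 genes in 6 libraries, prepared, per the labels' protocols, with Illumina's TruSeq RNA kit. Per the file headers and values, the authors' raw counts are whole and not normalized. The FPKM deposited by the authors follow them: in each of 15678 genes with counts throughout, the ratio of both gave 1 gene length within 0.1%. Bowtie 0.12.2 and the builds mm8 and mm9 are named in the submitters' processing notes without a role. Not given in the sources used here are the annotation, the counter and how it treated strand and multiple matches. Of 34267 gene identifiers found in GENCODE M21 (GRCm38), 80.8% had the same coordinates in the table, including those of Ipmk.

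Columns were assigned by sample title and grouped by the treatment label; a code in the treated titles, P50, is not explained. Libraries of a group differed by more than counting noise (chi-square per degree of freedom of 5.48 to 13.7). With edgeR 4.0.16 in R 4.3.3, filterByExpr kept 13836 genes, TMM scaled the libraries, and glmQLFit (robust) and glmQLFTest were used for two-sided tests, with Benjamini-Hochberg adjustment over all genes tested and a threshold of 0.05. Dividing the size of the log2 fold change by the root of F gave its SE. FPKM served for levels and the counts for tests. The steps were tested on simulated data.

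The 10 kinases and all lists were chosen with earlier results of these data known. Named are the 10 kinases, up to 3 genes of each list with the smallest p, the nearest tested neighbour on each side of Ipmk, the 5 and 3 genes with the highest and lowest correlation with Ipmk (log2 CPM, prior count 2), and marker genes that were highest or at 0; Ube2d1, Tfam, Bicc1 and Phyhipl were named with their values already seen. Alternatives were DESeq2 1.42.0, its size factors, library size alone, other filters (none, or at least 1 CPM in 3 libraries), the replicate number as a block, and leaving out each library; leaving out both libraries numbered 1 and the merged-exon length were added after seeing the data. A result that belonged to the lipid kinase list is not reported here.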

Additional observations from a re-analysis of the deposited data

How the results depend on the processing

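Over 13 alternatives the log2 fold change of Ipmk stayed between 1.35 and 1.53, and those of the 8 other tested kinases between -0.19 and 0.36, with 0 of the 8 called in any of them. The number of genes called, 3, was 10 with DESeq2 and 8 without a filter. It was 13 without control library 1, 5 without control library 3, and 8 and 6 without PDTLN1 libraries 1 and 2. Without control library 2 or PDTLN1 library 3 it was 2. Ipmk was among the genes called each time. As Ipmk was chosen by its difference between these same libraries, those calls are not separate support for it. Leaving out both libraries numbered 1, a choice made after seeing the data, gave 91 genes with Ipmk among them. It also gave 2 pathway genes, Plcg1 and Elmsan1, instead of 0. The share of all tested genes called in this setting is not given here, so nothing is read from that count. On the first principal component the controls left scored 11.7 and 12.6 and the PDTLN1 libraries left -15.5 and -9.03. Treatment and that split cannot be told apart in this setting, and the cause was not tested. Over all 6 libraries, Plcg1 was lowest and Elmsan1 highest in control library 1 and PDTLN1 libraries 2 and 3. With the replicate number as a block 1 gene was called and 0 of the kinases. Deviations of libraries sharing a number correlated at -0.36, -0.14 and -0.10 across genes, and 0 of 3 control libraries were closest to their own number, so the block was not taken as a pairing. The share of Ipmk was 4.05 to 4.47% in controls and 10.7 to 11.5% after PDTLN1 without any 1 library, and 5.54% and 13.7% with merged exons as length. Leaving out 1 library moved the log2 fold change of 18 of the 24 named pathway genes by over 1.5 times or across 0, the exceptions being Itpr1, Impa2, Nudt4, Slc5a11, Rictor and Ncor1, and that of each of the 8 tested kinases other than Ipmk. Among the kinases the sign turned for Ip6k1 (-0.038 to 0.079), Ip6k2 (-0.010 without PDTLN1 library 1, up to 0.12), Itpkc (0.065 without control library 3, down to -0.15) and Ppip5k2 (-0.022 to 0.046), and among the other named genes for Itpr2 (-0.047 without control library 1, up to 0.35), Nudt3 (0.029 without PDTLN1 library 2, down to -0.16), Slc5a3 (0.0015 without PDTLN1 library 3, down to -0.20) and Cisd1 (-0.032 without control library 2, -0.01 without PDTLN1 library 2, up to 0.062). Itpr2 was at -0.12 without both libraries numbered 1. The median SE over all genes was 0.13, which limits what 3 libraries per group can show for small changes.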
